A study of Homo sapiens with 6 samples.

Results

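The RBM genes, named for the RNA-binding motif of their proteins, were examined by RNA sequencing in HCT-8, a cell line of human colorectal cancer. Members were the protein-coding genes whose symbol is RBM followed by a number, with an optional letter, apart from RBM8A and any gene on the Y chromosome. Of 36 such genes, 34 had a count of 10 or more in at least 3 of the 6 libraries and are reported, out of 60664 gene IDs in the table. The counts that chose them came from both groups together. For RBM24 the shPNISR libraries were enough by themselves to meet this threshold, and in shNC only shNC 2 reached 10. The reverse held for RBM34, where the shNC libraries were enough and in shPNISR only shPNISR 2 reached 10. The study compared cells transfected with a plasmid for a short hairpin RNA against PNISR (shPNISR, 3 libraries) with cells transfected with a control hairpin plasmid (shNC, 3 libraries). Both groups carried a hairpin plasmid and were grown in the same serum-supplemented medium, and the sources used here give neither the time after transfection nor any selection. Separate cultures are not stated for the libraries, so a p-value here covers the spread among these 6 samples alone, part or all of which may be technical.

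RBM proteins bind RNA through RNA recognition motifs, and the shared name reflects that domain rather than a single pathway. Some are parts of the spliceosome or help it to recognise splice sites, some steer alternative splicing, and others bring enzymes to RNA, such as the nuclear exosome or the m6A methyltransferase. RBM3 is different again: it is a small glycine-rich protein whose mRNA is induced by mild cold, a property shared with its close relative CIRBP.

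Totals ranged from 15049485 to 17977803 counts per library. PNISR itself, an arginine and serine rich nuclear protein, had 313, 333 and 450 counts in shPNISR and 1002, 776 and 943 counts in shNC, and fell (log2 fold change -1.33 ± 0.15 SE; two-sided quasi-likelihood test of edgeR with Benjamini-Hochberg adjustment over all tested genes, adjusted p = 8.73e-05). The line's epithelial identity was visible in the counts: the summed level of 7 colorectal epithelial markers was 4283 to 5425 CPM (counts scaled to library size with TMM factors) in shPNISR and 4014 to 4439 CPM in shNC, although KRT20 had at most 7 counts in any library. The 4 leukocyte markers summed to 4.02 to 5.08 CPM in shPNISR and 2.59 to 3.49 CPM in shNC, with PTPRC at 0 counts in all 6 libraries. The 4 fibroblast markers summed to 2.20 to 2.97 CPM in shPNISR and 1.32 to 2.46 CPM in shNC, with COL1A2 at 0. The 2 endothelial markers summed to at most 0.296 CPM in shPNISR and 0.194 CPM in shNC. The shNC 2 library stood apart from the other shNC libraries, with a score on the first principal component of 0.787, against 16.9 to 24.6 in shPNISR and -35.2 and -31.2 in shNC 1 and shNC 3. Values without it are given beside the results that it changed most.

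RBM3 was the only member that differed at an adjusted p under 0.05 by edgeR with all libraries. Its counts were 3462, 3414 and 2694 in shPNISR 1 to 3, against 6865, 4945 and 6003 in shNC 1 to 3. On the scaled level these are 205, 211 and 165 CPM in shPNISR and 378, 320 and 399 CPM in shNC, and the highest shPNISR library lay well below the lowest shNC library, which was shNC 2. RBM3 averaged 194 ± 25.1 CPM in shPNISR and 366 ± 41.2 CPM in shNC (SD, n = 3 each). It fell by 0.92 on the log2 scale (SE 0.12, 95% interval -1.18 to -0.66), to 53.0% of its level in shNC (adjusted p = 0.000386 by edgeR). In bulk RNA, fewer cells with a transcript and less of it per cell cannot be told apart. The call held under all 17 alternatives run, with a log2 fold change between -1.05 and -0.81 and an adjusted p between 1.07e-11 and 0.0116. Without shNC 2 the log2 fold change was -1.01 ± 0.12.

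RBM3 (ENSG00000102317) lies on the plus strand of the X chromosome, chrX:48574449-48579066 in GRCh38. An antisense gene shares 95 bases with its exons, or 2.55% of their length, and whether the counting used strand is not stated. Among the 134 genes that were lower with shPNISR, RBM3 ranked 27 by fold change, 6 by p-value and 3 by its mean CPM in shNC. CPM is not corrected for gene length, so the last rank is one of counts and not of abundance. It supplied 8.93%, 9.49% and 7.61% of all RBM family counts in shPNISR 1 to 3, against 13.7%, 13.4% and 14.4% in shNC 1 to 3.

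CIRBP, the other well known cold-inducible RNA-binding protein of this type, did not move with RBM3. CIRBP was at 225, 250 and 210 CPM in shPNISR and 178, 194 and 203 CPM in shNC. The groups did not overlap, with shPNISR the higher, but the difference did not pass (log2 fold change 0.25 ± 0.11 SE, 95% interval 0.02 to 0.48, edgeR adjusted p = 0.23). With the correction for GC content and length described below, CIRBP was at 0.14 (edgeR adjusted p = 0.559). It was called in 0 of the 17 alternatives. The ratio of RBM3 to CIRBP on the CPM scale was 0.912, 0.845 and 0.785 in shPNISR and 2.12, 1.65 and 1.97 in shNC. CPM is not corrected for length, so this ratio tells how the pair moved between the groups and not which of them was the more abundant. Per kilobase of exon, CIRBP was at 35.3, 39.3 and 33.0 CPM per kb in shPNISR and 28.0, 30.5 and 31.8 CPM per kb in shNC. RBM3 was above these levels in all 6 libraries, at 44.2 to 56.7 CPM per kb in shPNISR and 85.7 to 107 CPM per kb in shNC. On the log2 scale the ratio averaged -0.24 ± 0.11 in shPNISR and 0.93 ± 0.19 in shNC (SD, n = 3 each), a difference of -1.17. The groups had already parted for both genes, in opposite directions, so the ratio had to part as well. The difference is therefore a description, and a test of it could add no support.

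The DNA before the RefSeq starts of this pair is shown because their CPM did not overlap between the groups, although CIRBP did not pass in any fit. Each line gives the 250 bases before the RefSeq start of the gene (GRCh38.p14, plus strand), 5′ to 3′. Capitals mark the CCAAT box and the paired forms GAANNTTC and TTCNNGAA, the spacing of inverted heat shock element repeats, on either strand. RBM3 is at chrX:48574234-48574483 and CIRBP at chr19:1269082-1269331. The GENCODE genes used for exon lengths start further upstream than RefSeq. RBM3 there starts at chrX:48574449, inside the end of its window. CIRBP there spans chr19:1259384-1274880, so its whole window lies within that gene.
RBM3: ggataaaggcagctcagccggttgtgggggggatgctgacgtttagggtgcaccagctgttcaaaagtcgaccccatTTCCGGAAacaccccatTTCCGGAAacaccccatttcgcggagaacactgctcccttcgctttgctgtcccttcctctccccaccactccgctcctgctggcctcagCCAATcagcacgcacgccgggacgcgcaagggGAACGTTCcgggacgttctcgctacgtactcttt
CIRBP: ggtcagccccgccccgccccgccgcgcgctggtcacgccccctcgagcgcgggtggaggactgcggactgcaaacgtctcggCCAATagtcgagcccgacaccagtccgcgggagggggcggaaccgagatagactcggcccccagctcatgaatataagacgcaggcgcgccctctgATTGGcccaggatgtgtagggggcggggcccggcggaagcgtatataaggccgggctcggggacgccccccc

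The RBM3 window held GAANNTTC once, at -34 to -27 from the RefSeq start, and TTCNNGAA at -173 to -166 and -156 to -149. The GAANNTTC match lies in the part of the window that the GENCODE gene covers. All 3 of these matches overlap TTCCGG, the core bound by ETS factors, which is in 14.5% of windows. The CIRBP window held neither paired form. Among 35116 windows of this length, 5.78% held GAANNTTC and 6.62% held TTCNNGAA. CCAAT was in both windows, as in 32.0% of all windows. GGGCGG, the GC box, matched 4 times in CIRBP and not in RBM3, beside 42.6% of all windows. TATAAA was searched too, is in 10.7% of windows and matched neither. A match is a description of the letters, and binding was not measured.

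**Figure D1:**
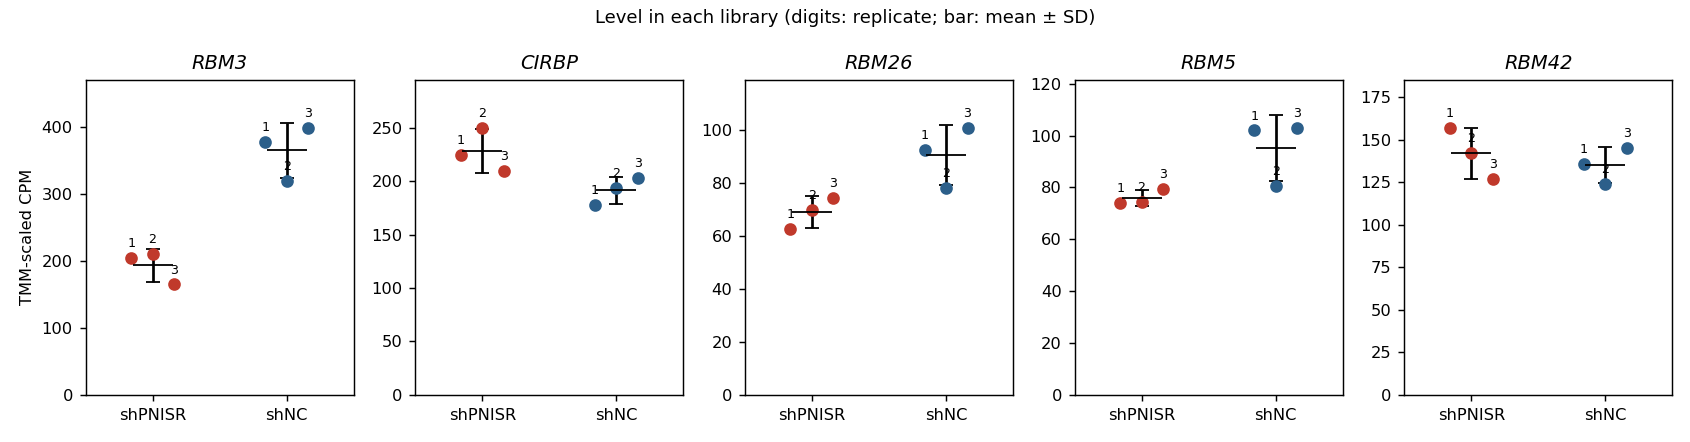
TMM-scaled CPM of RBM3, CIRBP, RBM26, RBM5 and RBM42 in each library (points, labelled by replicate number; bars, mean ± SD of 3 libraries; each vertical axis starts at 0). The 3 shPNISR libraries sit between 165 and 211 CPM for RBM3, below the 320 to 399 CPM of the shNC libraries, while shNC 2 lies near the shPNISR libraries for RBM26 and RBM5.

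Across the family as a whole, 1 of the 34 members was lower and none was higher at an adjusted p of 0.05 by edgeR. Among all 16102 tested genes, 0.832% were lower and 2.30% higher by the same rule. DESeq2 and limma voom also called no member higher, beside 2.96% and 2.42% of the genes they tested, and 7 members had an unadjusted p under 0.05, beside 17.8% of all tested genes. All 34 members passed the low-count filter of the test. The adjusted p of the 33 members not called ran from 0.0871 to 0.945. Apart from RBM24 and RBM34, which had few counts, their 95% intervals ran no lower than -0.68 and no higher than 0.52, so smaller differences than these remain possible in single members.

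The fitted difference was below 0 for 29 of the 34 members, beside 52.1% of all tested genes, and the median log2 fold change was -0.16, beside -0.01 over all tested genes. RBM34, whose shNC counts alone met the count rule, is among the 29, and RBM24 is among those above 0. Groups did not overlap for 7 members with shPNISR the lower, beside 9.60% of all tested genes, and for 1 member, RBM24, with shPNISR the higher, beside 11.5%. Both directions together gave 8 members, beside 21.1% of all tested genes. The 7 were RBM3, RBM5, RBM6, RBM18, RBM23, RBM26 and RBM48. A median below 0 was also seen within shNC. With the mean of shNC 1 and shNC 3 as the zero point, the median member lay at -0.24, -0.22 and -0.22 in shPNISR 1 to 3 and at -0.23 in shNC 2. For RBM3 the same shifts were -0.92, -0.88 and -1.24 in shPNISR and -0.28 in shNC 2. All 34 members together took 0.224%, 0.218% and 0.225% of counts in shPNISR and 0.280%, 0.238% and 0.277% in shNC.

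Without shNC 2, 5 members were called lower, beside 4.52% of all tested genes, and 1 higher, beside 7.78%. The 5 were RBM3, RBM26 (log2 fold change -0.49 ± 0.12), RBM5 (-0.44 ± 0.11), RBM39 (-0.43 ± 0.11) and RBM12B (-0.45 ± 0.14). Their adjusted p ran from 1.91e-05 for RBM3 to 0.0376 for RBM12B by edgeR. The member called higher was RBM24. Among members not called in either fit, RBM14 was at -0.26 ± 0.11 without shNC 2 and -0.10 ± 0.14 with it, RBM4B at -0.31 ± 0.13 and -0.14 ± 0.15, RBM7 at -0.21 ± 0.17 and -0.10 ± 0.17, and RBM28 at -0.23 ± 0.12 and -0.12 ± 0.13. RBM20 moved the other way, to -0.18 ± 0.18 without shNC 2, against -0.29 ± 0.18 with it. The median over all 34 members was -0.22 without shNC 2. The part that the shNC 2 library has in these differences was not tested beyond leaving it out.

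**Figure D2:**
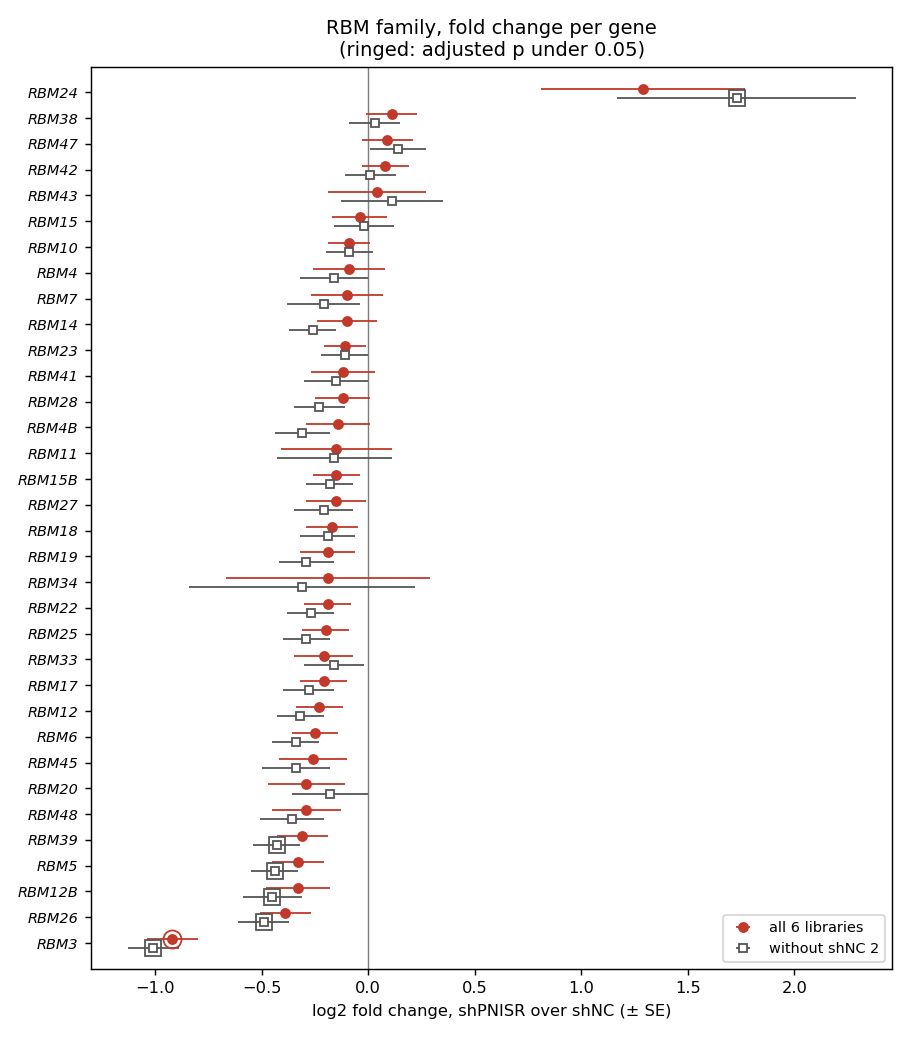
Log2 fold change of shPNISR over shNC for each of the 34 RBM genes, with its SE, from all 6 libraries (filled circles) and without shNC 2 (open squares); rings mark an adjusted p under 0.05. With all 6 libraries RBM3 at -0.92 is the ringed gene, and without shNC 2 RBM26, RBM12B, RBM5, RBM39 and RBM24 are ringed as well.

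Among the 8 members of the spliceosome and of splice-site recognition, 7 had a fitted value below 0, 1 was above it and none was called (median log2 fold change -0.19). RBM39, a relative of the splicing factor U2AF2, was at 150, 162 and 171 CPM in shPNISR and 206, 164 and 227 CPM in shNC. Its groups overlapped through shNC 2, and it did not pass with all libraries (-0.31 ± 0.12, adjusted p = 0.192 by edgeR). RBM23, the closest relative of RBM39, was at 123 ± 8.52 CPM in shPNISR and 133 ± 1.68 CPM in shNC (SD, n = 3 each). RBM17, which acts at the 3′ splice site, had a log2 fold change of -0.21 ± 0.11, and RBM25, a regulator of splice-site choice, -0.20 ± 0.11. RBM22, which sits near the catalytic centre of the spliceosome, was at -0.19 ± 0.11. RBM48 and RBM41, which act in the minor spliceosome, had log2 fold changes of -0.29 ± 0.16 and -0.12 ± 0.15. RBM42, found in the tri-snRNP, was at 157, 142 and 127 CPM in shPNISR and 136, 124 and 145 CPM in shNC, and the groups overlapped (0.08 ± 0.11, adjusted p = 0.775).

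The G-patch proteins RBM5, RBM6 and RBM10 regulate alternative exons, and RBM5 and RBM6 are neighbours on the plus strand of chromosome 3, at chr3:50088908-50119021 for RBM5 and chr3:49940007-50100045 for RBM6. RBM5 was at 74.0, 74.3 and 79.3 CPM in shPNISR and 102, 80.7 and 103 CPM in shNC. All shPNISR libraries lay below all shNC libraries, with shNC 2 the nearest, and the difference did not pass (log2 fold change -0.33 ± 0.12, edgeR adjusted p = 0.140). RBM6 was at 72.7, 78.3 and 75.2 CPM in shPNISR and 95.5, 78.9 and 94.7 CPM in shNC, and shNC 2 was again the shNC library nearest to shPNISR (-0.25 ± 0.11, adjusted p = 0.254). The pair share 456 exonic bases, and both share exonic bases with RBM5-AS1 on the other strand, so some of their reads cannot be assigned with certainty. RBM10, on the X chromosome, was at 149, 136 and 129 CPM in shPNISR and 149, 149 and 143 CPM in shNC, a log2 fold change of -0.09 ± 0.10. Its exons share 636 bases with NDUFB11 on the other strand.

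Members grouped as adaptors of nuclear RNA decay and export, RBM33 among them, had 4 of 4 fitted values below 0 and none called (median -0.18). RBM26, a partner of the exosome adaptor ZFC3H1, had the largest difference after RBM3 among members lower in shPNISR. The gene lies at chr13:79311824-79406477 (GRCh38, minus strand). It was at 62.7, 69.9 and 74.6 CPM in shPNISR and 92.6, 78.4 and 101 CPM in shNC. The groups did not overlap, shNC 2 again lay closest to shPNISR, and RBM26 did not pass (log2 fold change -0.39 ± 0.12, 95% interval -0.64 to -0.14, edgeR adjusted p = 0.0871). It was called in 3 of the 17 alternatives, among them the fit with no low-count filter, where 2 members were lower beside 1.2% of all tested genes. Its relative RBM27 was at 28.0 ± 4.14 CPM in shPNISR and 31.0 ± 2.93 CPM in shNC, and a readthrough gene shares 45.4% of its exon length. RBM7, a subunit of the nuclear exosome targeting complex, was at 17.1 ± 3.69 CPM in shPNISR and 18.3 ± 2.51 CPM in shNC (SD, n = 3 each). RBM33, described as an adaptor of the m6A demethylase ALKBH5, differed by -0.21 ± 0.14 on the log2 scale.

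RBM15 and RBM15B, which guide the m6A methyltransferase to RNA, differed by -0.04 ± 0.13 and -0.15 ± 0.11 on the log2 scale. The nucleolar proteins RBM19 and RBM28, needed for ribosome assembly, were at -0.19 ± 0.13 and -0.12 ± 0.13. RBM34 had 9, 19 and 6 counts in shPNISR and 10, 10 and 18 in shNC. It shares 51.5% of its exon length with ARID4B on the same strand, so its counts may be incomplete. The shNC libraries of RBM34 were enough by themselves to meet the count rule, so its being lower in shPNISR is not independent of the choice. RBM14, a paraspeckle protein, was at 120, 116 and 101 CPM in shPNISR and 138, 92.5 and 130 CPM in shNC, where shNC 2 was the lowest of all 6 libraries. Its log2 fold change was -0.10 ± 0.14 with all libraries and -0.26 ± 0.11 without shNC 2, and it passed in neither fit (edgeR adjusted p = 0.756 and 0.152). It was called, at -0.47 ± 0.10, where shNC 2 was left out and GC content and length were corrected (adjusted p = 0.00366). The splicing regulators RBM4 and RBM4B were at -0.09 ± 0.17 and -0.14 ± 0.15, and a readthrough gene shares 24.2% of RBM4 exon length. RBM12, which overlaps CPNE1, was at 142, 123 and 126 CPM in shPNISR and 166, 137 and 158 CPM in shNC (-0.23 ± 0.11, adjusted p = 0.282). RBM12B was at 29.2, 26.2 and 35.3 CPM in shPNISR and 43.1, 31.5 and 39.1 CPM in shNC (-0.33 ± 0.15, edgeR adjusted p = 0.248). The exons of RBM12B share 2172 bases, or 28.5% of their length, with FAM92A on the other strand, so some of its reads may belong to that gene. RBM12 and RBM12B overlapped between the groups through shNC 2. The less studied RBM18 was at 29.6 CPM in shPNISR and 33.4 CPM in shNC, and RBM43 at 4.46 CPM in shPNISR and 4.33 CPM in shNC.

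The tissue-type regulators were split in direction, with 3 of 6 fitted values above 0 and none called. RBM47, an RNA-binding cofactor of the C-to-U editing enzyme APOBEC1 that is prominent in intestinal epithelium, was at 54.8 ± 4.37 CPM in shPNISR and 51.4 ± 5.34 CPM in shNC (SD, n = 3 each). RBM38, a p53 target that binds the CDKN1A mRNA, was at 79.0 ± 7.55 CPM in shPNISR and 73.0 ± 9.89 CPM in shNC. RBM20, known for splicing of titin in heart, was at 14.0 ± 2.19 CPM in shPNISR and 17.1 ± 3.66 CPM in shNC. RBM11 and RBM45, both studied mainly in neural tissue, had log2 fold changes of -0.15 ± 0.26 and -0.26 ± 0.16. RBM24, a splicing regulator of muscle, had 13, 17 and 20 counts in shPNISR and 8, 10 and 2 in shNC. Its log2 fold change was 1.29 ± 0.48 and did not pass with all libraries (edgeR adjusted p = 0.156). It was called without shNC 2 (1.73 ± 0.56, adjusted p = 0.0462). Its shPNISR libraries were enough by themselves to meet the count rule for membership, so its being higher there is not independent of the choice.

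At the edge of that rule, RBM24 and RBM34 had 10 or more counts in 4 of the 6 libraries, and the next member, RBM11, had 42 to 67 counts in shPNISR and 55 to 68 in shNC. Just outside it, RBM44 had 2, 0 and 4 counts in shPNISR and 1, 6 and 0 in shNC. RBM46 had 0 counts in every library, which allows up to 3 counts per library, or 0.167 to 0.199 CPM of the library totals.

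**Figure D3:**
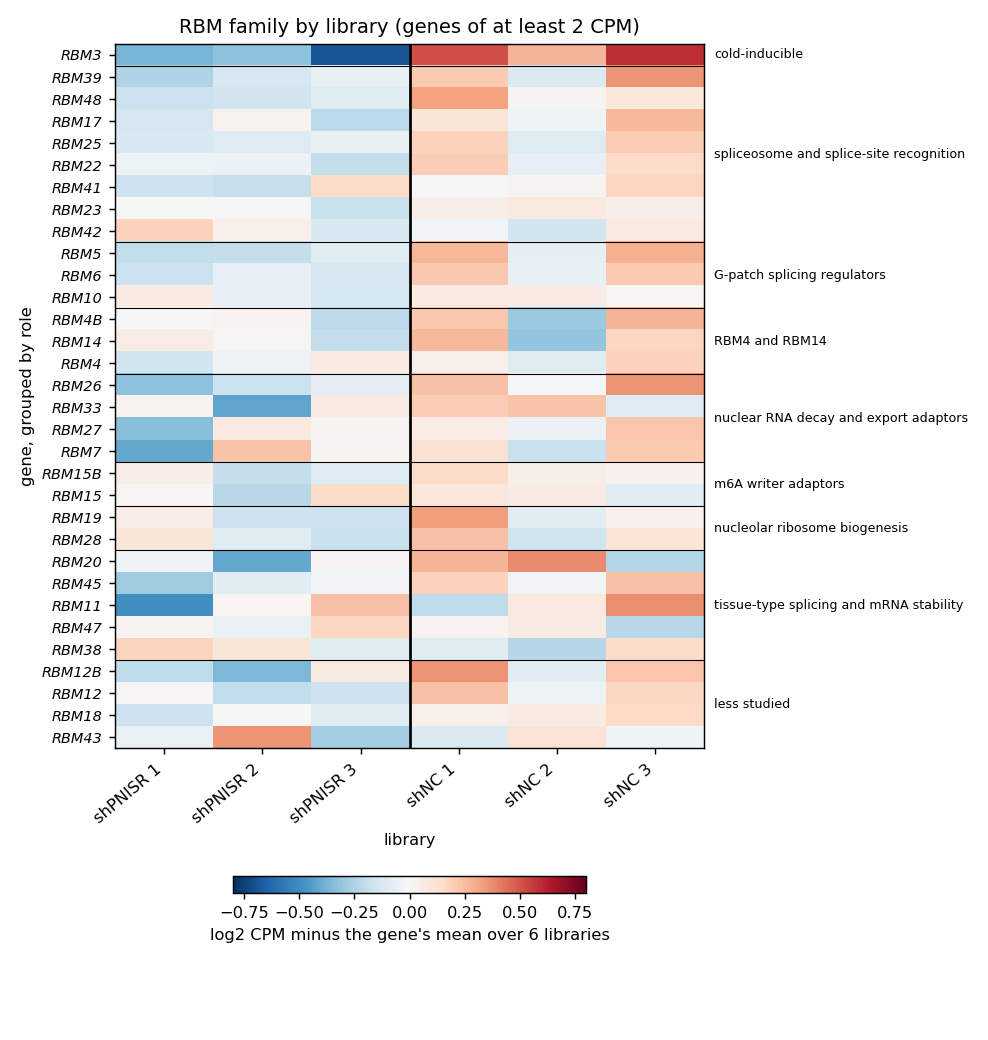
Log2 CPM of each RBM gene minus its mean over the 6 libraries (colour), for genes averaging at least 2 CPM, with the shPNISR libraries left of the line, the shNC libraries right of it and the genes grouped by role. RBM3 is low in all 3 shPNISR libraries and high in all 3 shNC libraries, and shNC 2 is the lowest shNC library for 21 of the 34 members.

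Levels of different members were compared per kilobase of annotated exon. Over all libraries they spanned 0.206 CPM per kb for RBM24 to 75.0 CPM per kb for RBM3. RBM42 followed with 62.7, RBM10 with 36.6 and RBM14 with 29.5 CPM per kb. The order at the top differed between the groups. In shPNISR 1 to 3, RBM3 was at 54.9, 56.7 and 44.2 CPM per kb, below RBM42 at 71.2, 64.4 and 57.6 CPM per kb in each library. In shNC 1 to 3, RBM3 was at 101, 85.7 and 107 CPM per kb, above RBM42 at 61.7, 56.1 and 65.6 CPM per kb in each library.

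**Figure D4:**
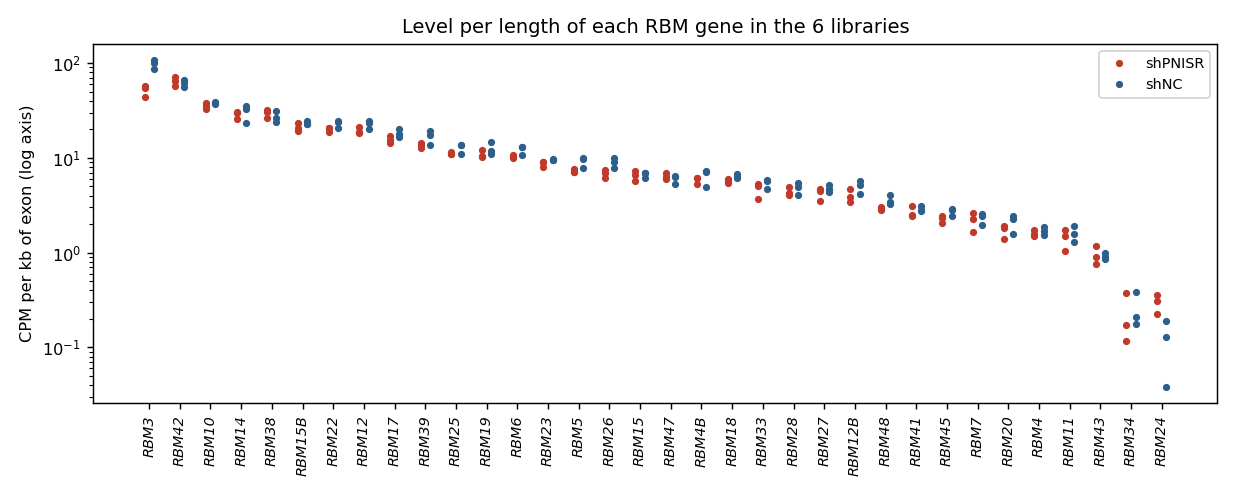
CPM per kilobase of exon for each of the 34 RBM genes in the 6 libraries (points, shPNISR left and shNC right for each gene, log axis), ordered by the mean over all libraries. RBM3 is at 44.2 to 56.7 CPM per kb in shPNISR and 85.7 to 107 in shNC, and most other genes have overlapping points.

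GC content moved with the fold change in these libraries. Across all 15989 tested genes with an annotated sequence, Spearman's rho between GC content and log2 fold change was 0.40, and across the 34 members it was 0.36. Genes are not independent and share the same 6 libraries, so this is a description. Tested genes of under 40% GC had a median log2 fold change of -0.16 and those of 60% or more 0.17. The 11 members of 40% to 45% GC had a median of -0.21, beside -0.11 for all genes of that class, and the 3 members of 60% or more had a median of 0.08. After each library was corrected for GC content and length, 27 of 34 members were below 0, beside 8894 of all 16102 tested genes. The median of the members was then -0.14, beside -0.03 for all tested genes. The correction turned the relation round among the members, whose rho with GC content was then -0.46, beside -0.04 across all tested genes. Corrected values of members rich in GC are thus lower than the uncorrected ones, for example -0.27 and -0.09 for RBM10 and -0.27 and -0.10 for RBM14. RBM3, with 49.4% GC, stayed at -0.95 and was the 1 member called (edgeR adjusted p = 0.000417), beside 1.14% of all tested genes lower, while RBM26 was at -0.22, RBM5 at -0.24 and RBM39 at -0.13. Correcting for GC content and also leaving out shNC 2 gave 9 members lower, beside 7.68% of all tested genes, and 1 higher, beside 6.82%. These 9 were RBM3, RBM4B, RBM5, RBM6, RBM10, RBM14, RBM15B, RBM19 and RBM26, and 4 of them (RBM10, RBM14, RBM15B and RBM19) have more than 55% GC. The part of GC content and of RNA quality in the members' differences was not tested further.

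**Figure D5:**
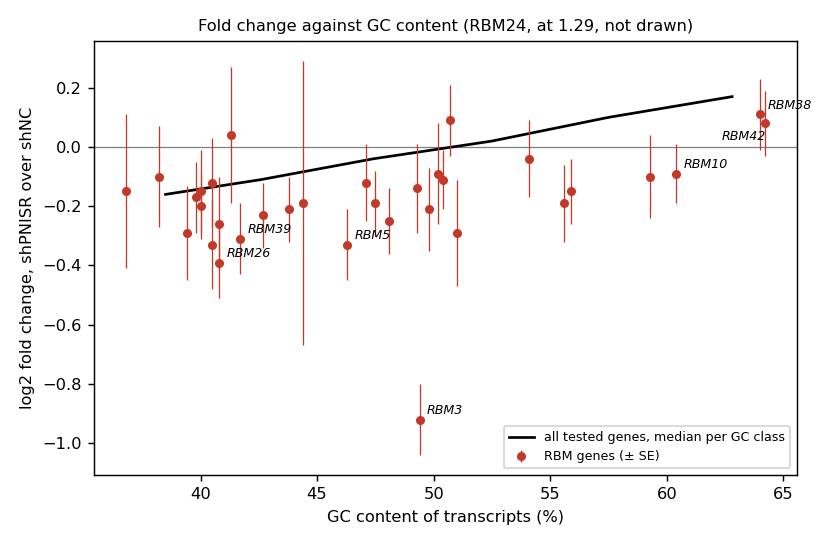
Log2 fold change of shPNISR over shNC (± SE) against the GC content of each RBM gene's transcripts, with the median of all tested genes in each GC class as a line; RBM24, at 1.29, is not drawn. RBM3 at -0.92 lies far below the line, and the members' median is below the line in 5 of the 6 GC classes.

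Genes that work with RBM proteins were read from the same fit. No partner was called in any of the lists, beside 3.14% of all tested genes in either direction. Of 8 further genes, those named RBM with letters after the stem and also RBPMS and RBPMS2, 5 were below 0. Both RBPMS and RBPMS2 were above 0. The groups did not overlap for RBPMS, which was higher by 0.39 ± 0.15 (edgeR adjusted p = 0.16) and was called in 1 of the 17 alternatives. Among them RBMX, a splicing regulator, was at 338 ± 32.1 CPM in shPNISR and 385 ± 36.3 CPM in shNC (SD, n = 3 each). Of 6 partners in the nuclear exosome adaptors, 5 were below 0, and ZC3H18 was at 121 ± 11.4 CPM in shPNISR and 133 ± 11.0 CPM in shNC. Of 6 members of the m6A methyltransferase complex, 5 were below 0. ZC3H13 was at 107 ± 10.4 CPM in shPNISR and 121 ± 12.0 CPM in shNC. WTAP was at 81.6 ± 7.80 CPM in shPNISR and 98.6 ± 17.5 CPM in shNC. It was the 1 gene of this list lower without shNC 2 (log2 fold change -0.41, edgeR adjusted p = 0.0291), beside 4.52% of all tested genes. Of 8 genes of 3′ splice site recognition, 7 were below 0. U2AF2 was at 422 ± 40.8 CPM in shPNISR and 450 ± 41.8 CPM in shNC. U2SURP was the 1 gene of this list lower without shNC 2 (-0.39, edgeR adjusted p = 0.0478), beside the same 4.52% of all tested genes. U2AF1 had 151, 61 and 47 counts in shPNISR and 461, 62 and 112 in shNC, and a near-identical copy makes these counts uncertain; it was called with a replicate block. Of 7 minor spliceosome genes, 2 were below 0, with SNRNP25 at 94.5 ± 10.8 CPM in shPNISR and 94.2 ± 6.74 CPM in shNC. SYNCRIP, an RNA-binding protein listed with the RBM47 partners, was at 108 ± 10.7 CPM in shPNISR and 127 ± 21.5 CPM in shNC (log2 fold change -0.24 ± 0.13, edgeR adjusted p = 0.338). APOBEC1, the editing partner of RBM47, had 0, 4 and 0 counts in shPNISR and 0 in each shNC library. A1CF, another RBM47 partner, had 6, 11 and 9 counts in shPNISR and 2, 2 and 5 in shNC, and neither APOBEC1 nor A1CF was tested.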

How the data were processed

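RNA from 6 libraries of HCT-8 cells was sequenced. The deposited table holds raw read counts for 60664 Ensembl gene IDs, of which 60463 matched a symbol. Per the submitters' processing notes, HISAT2 2.0.4 and GRCh38 were used. The read counter, the annotation and the strandedness are not stated in the labels. Columns were matched to libraries by title. Within each group the libraries differed beyond sampling noise, so none was merged.

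The whole table was filtered (edgeR filterByExpr, minimum count 10, minimum total 15), scaled by TMM factors and tested by the robust quasi-likelihood method of edgeR 4.0.16 (R 4.3.3) with Benjamini-Hochberg adjustment at 0.05 over 16102 genes, and the rows of the family were read from that fit. On simulated data the test recovered 89 of 100 genes changed 2-fold and 36 of 100 genes changed 1.5-fold. It also called 16 unchanged genes. A member not called may thus still differ by 1.5-fold, and some calls may be false. Alternatives used DESeq2 1.42.0 and limma 3.58.1, other scalings and filters, a replicate block, a loess correction (span 0.4) for GC content and length, and leaving out each library. Positions, exon lengths, overlaps and GC content came from GENCODE release 29 (GRCh38), and upstream sequences from RefSeq (GRCh38.p14), where 30 of 34 members matched. Members and lists were chosen with earlier results of these data known. Per-library values are given for PNISR, for called members, for the 8 members with the smallest p and for the 4 highest per kilobase. Each partner list has 1 or 2 of its members of highest CPM named. Other values, among them those of RBPMS, U2SURP, U2AF1, APOBEC1 and A1CF, were chosen after they were seen. Figures used matplotlib 3.10.9. Isoform usage was not analysed here.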

Additional observations from a re-analysis of the deposited data

How the results depend on the processing

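The RBM3 call and its direction held under all 17 alternatives, and so did those of PNISR. The median log2 fold change of the RBM members stayed between -0.22 and -0.13. With no low-count filter, 642 genes were higher and 354 lower, and 2 RBM members were lower (RBM26 joined RBM3, adjusted p = 0.0409 by edgeR). Library totals gave 71 lower genes and DESeq2 229. The GC content and length correction with shNC 2 left out gave 1126 higher and 1267 lower genes, with 1 RBM member higher and 9 lower. Leaving out 1 library at a time gave 133 to 1284 higher and 30 to 746 lower genes, and 0 to 1 RBM members higher and 1 to 5 lower; the highest of each came without shNC 2, and the lowest counts over all genes without shPNISR 1. The cause was not tested. With the replicate number as a block, 390 genes were higher and 118 lower, and RBM3 was at -0.92 (edgeR adjusted p = 0.000326). Deviations from the group mean correlated at 0.119, -0.0814 and -0.150 between same-numbered libraries, and at -0.226 to 0.307 between unlike-numbered ones. With 3 libraries per group these values cannot tell whether same-numbered libraries share more than a number. Depth limits RBM24 and RBM34, and intervals cover the spread between these libraries.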
